A study of Mus musculus with 31 samples.

Results

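Gene expression was compared between mesenchymal and non-mesenchymal cells of the newborn pancreas in H19DMD mutant mice. H19DMD is the imprinting control region upstream of H19. The comparison rests on 8 of the 31 samples of the series, chosen by their labels: 4 libraries of mesenchymal cells (YFP-positive) and 4 of non-mesenchymal cells (YFP-negative) from animals labelled H19DMDfl/+; Nkx3.2+/Cre. Pancreata of C57BL/6 mice were taken at postnatal day 2, dissociated with trypsin and sorted by fluorescence, and RNA was sequenced after amplification. The Cre driver acts in cells that express Nkx3.2, a transcription factor of the foregut mesenchyme, so recombination of the floxed allele is directed to that lineage. Controls, used here only to set the same contrast beside the mutants, were H19DMD+/+; Nkx3.2+/Cre, with 3 libraries of each fraction. Mutants and controls therefore share the Nkx3.2-Cre allele, and the fractions are defined by YFP alone. The labels do not say that the libraries of a group come from separate animals, so p-values then measure only the spread between these samples, which may be technical. Values are FPKM (fragments mapped to a gene, divided by its transcript length and by the size of the library) and are given for libraries 1 to 4 of a fraction in that order.

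The pancreatic mesenchyme surrounds the developing acini, ducts and islets, lays down interstitial matrix and secretes growth factors to which the epithelium responds. Igf2, an imprinted growth factor expressed from the paternal allele, and H19, a non-coding RNA expressed from the maternal allele, share enhancers, and H19DMD decides which of the pair those enhancers serve. The YFP-negative fraction holds whatever else the dissociated organ contained: acinar, ductal and endocrine epithelium, and blood, vessel and nerve cells as far as they survived dissociation.

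In the mesenchymal fraction Igf2 was 7923, 7467, 6608 and 6162 FPKM in mutants and 3876, 4024 and 3648 FPKM in controls. H19 was 635, 766, 565 and 835 FPKM there, against 2437, 2446 and 2454 FPKM in controls. Mutants thus lay above the controls for Igf2 and below them for H19 in every mesenchymal library. FPKM do not give the depth of a library, but the smallest steps between values put the 8 mutant libraries within 2.64-fold of each other. Between 17476 and 19352 genes had a value above 0. Pearson's r of log2(FPKM + 1) across genes whose longest transcript has 200 nt or more was 0.883 to 0.923 within a fraction and 0.594 to 0.690 between fractions, where genes are not independent replicates.

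The marker genes separated the fractions. Col1a1, a chain of type I collagen (ENSMUSG00000001506, chromosome 11, 94936224 to 94953042 in GRCm38), was 846, 1160, 629 and 867 FPKM in mesenchymal libraries and 13.9, 19.2, 3.69 and 15.7 FPKM in non-mesenchymal libraries. Cpa1, an acinar carboxypeptidase (ENSMUSG00000054446, chromosome 6, 30639218 to 30645363), was 43.8, 17.0, 32.9 and 14.4 FPKM against 874, 889, 1477 and 1058 FPKM. Ins2, an insulin gene (ENSMUSG00000000215, chromosome 7, 142678656 to 142743381), was 36.5, 73.7, 16.6 and 7.26 FPKM against 6991, 5056, 4387 and 3738 FPKM. Cd52, a leukocyte surface glycoprotein (ENSMUSG00000000682, chromosome 4), was listed at 0 in every mesenchymal library and was 133, 28.7, 40.4 and 30.7 FPKM in non-mesenchymal libraries. For all 4 genes the fractions did not overlap. The labelled mesenchyme thus holds its defining markers, and the sum of 7 of them was 4968 to 6313 FPKM there and 35 to 134 FPKM in the other fraction, 1.45% of the mesenchymal mean.

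RNA of other cell types was measured in the mesenchymal fraction by summed markers. The sum of 5 acinar markers was 530 to 1680 FPKM there, 1.90% of the non-mesenchymal mean, and highest in mesenchymal library 1. The sum of 5 endocrine markers was 0.505%, of 5 ductal markers 1.65% of 5 leukocyte markers 0.860% and of 4 erythroid markers 2.40% of the non-mesenchymal mean. These were low, whereas 4 Schwann and neural markers came to 32.3% (20.6% without mesenchymal library 1) and 5 endothelial markers to 273% of the non-mesenchymal mean. Of the leukocyte markers, Cd52 and Tyrobp were listed at 0 in all 4 mesenchymal libraries. Each of these sums had groups that did not overlap, with the smallest two-sided exact permutation p that 70 relabellings allow (0.0286). In sorted bulk samples, fewer cells of a type and less RNA per cell cannot be told apart.

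**Figure D1:**
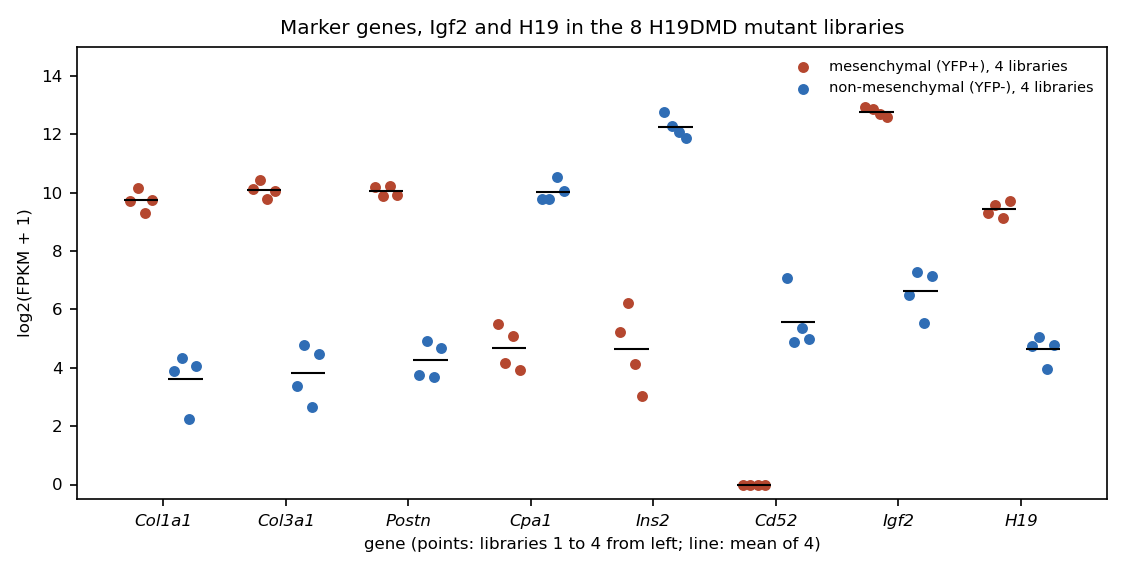
Levels of the marker genes, Igf2 and H19 as log2(FPKM + 1) on the y axis, with 1 point per library of the 8 H19DMD mutant libraries, colours for the fractions and a black line at each fraction's mean. Col1a1, Col3a1, Postn, Igf2 and H19 are high in the 4 mesenchymal libraries, and Cpa1, Ins2 and Cd52 in the 4 non-mesenchymal libraries, with no overlap.

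Across all genes, 16767 reached an average of 1 FPKM in the 8 libraries and were tested with limma on log2(FPKM + 1). At a Benjamini-Hochberg adjusted p under 0.05, here named a call, 4802 genes (28.6%) differed: 2265 (13.5%) were higher in mesenchymal cells and 2537 (15.1%) lower. At least 4-fold differences were seen for 837 of the higher and 959 of the lower genes. The added 1 FPKM makes differences of low genes look smaller than they are. The fractions did not overlap for 2409 genes (14.4%) in the higher and 2782 (16.6%) in the lower direction. The median difference of all genes tested was -0.03, so gene groups below are set beside that value and beside these shares. In the Wnt modulator, BMP and TGF-beta, EGF, Notch, imprinted, endoplasmic reticulum and immediate-early lists, few calls went in the less frequent direction. Their share was below that of all genes called in that direction.

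All 24 extracellular matrix genes examined were called higher in mesenchymal cells, with a median log2 difference of 5.31. Dcn, the collagen-binding proteoglycan decorin, was 1244, 1115, 1262 and 775 FPKM in mesenchymal and 7.16, 19.5, 5.17 and 15.5 FPKM in non-mesenchymal libraries, a difference of 6.56 ± 0.39 (SE) with an adjusted p of 1.11e-05. Lum, the related proteoglycan lumican, was 299, 287, 355 and 224 FPKM against 1.87, 3.86, 1.63 and 3.90 FPKM (6.30 ± 0.26, adjusted p = 2.95e-06). Mfap5, a microfibril glycoprotein, was 249, 295, 228 and 230 FPKM against 0.858, 4.79, 0.485 and 3.66 FPKM. The lowest mesenchymal value of each of these genes lay far above the highest non-mesenchymal value, and within the non-mesenchymal fraction libraries 2 and 4 were the higher pair for all 3. Col3a1, the chain of type III collagen, followed the same order, with 9.27, 26.4, 5.32 and 21.1 FPKM in the non-mesenchymal fraction against 1124, 1387, 874 and 1069 FPKM (6.29 ± 0.45, adjusted p = 2.53e-05). Postn, the matricellular protein periostin, was 1181, 954, 1214 and 971 FPKM against 12.5, 29.3, 11.8 and 24.8 FPKM. The summed level of 7 mesenchymal markers was 133.6 and 103.2 FPKM in non-mesenchymal libraries 2 and 4 and 53.3 and 35 FPKM in libraries 1 and 3. This sum includes Dcn, Lum, Col3a1 and Postn themselves, so it is not a separate measure of their order. Its part in these differences was not tested.

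Of 27 transcription factors of visceral mesenchyme, 20 could be tested, of which 18 were called higher and 2 did not pass, with a median log2 difference of 2.43 (1.97 over all 27 in the table, those too low for the test included). Prrx1, a paired-type homeobox factor of fibroblasts, was 51.5, 53.0, 72.4 and 69.97 FPKM in mesenchymal and 0, 1.67, 0.120 and 0.543 FPKM in non-mesenchymal libraries (5.40 ± 0.32, adjusted p = 1.05e-05). Osr1, a zinc-finger factor of intermediate mesoderm and foregut mesenchyme, was 59.4, 66.5, 26.5 and 28.8 FPKM against at most 1.41 FPKM. Tcf21, a basic helix-loop-helix factor of visceral mesenchyme, was 24.2, 18.6, 17.6 and 12.9 FPKM and was listed at 0 in 3 of the 4 non-mesenchymal libraries. Snai2, the repressor known as Slug, was 41.4, 25, 30.8 and 19.5 FPKM against 0.341 to 1.41 FPKM. For each of these factors the fractions were clearly apart. Nkx3-2, the gene whose promoter drives Cre and which was singled out after its values were seen, was low: 1.99, 1.66, 0.475 and 0 FPKM in mesenchymal libraries and listed at 0 in every non-mesenchymal library, under the mean needed for a test.

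Genes of smooth muscle and pericytes, the contractile cells around vessels and in organ walls, were higher in mesenchymal cells for 13 of 15 tested, and 2 did not pass, with a median of 3.65. Acta2, smooth muscle actin, was 333, 159, 111 and 34.7 FPKM in mesenchymal and 2.72, 4.79, 0 and 0.863 FPKM in non-mesenchymal libraries (5.59 ± 0.76, adjusted p = 0.000864). Actg2, the enteric smooth muscle actin, was 335, 134, 125 and 13.5 FPKM against at most 3.37 FPKM. Myh11, smooth muscle myosin, was 129, 64.8, 47.2 and 11.3 FPKM against at most 1.53 FPKM. Mesenchymal library 1 was the highest and library 4 the lowest for all 3 contractile genes, and library 4 still lay above every non-mesenchymal library. Abcc9, a potassium channel subunit of pericytes, varied less, with 81.3, 77.4, 61.0 and 44.6 FPKM against 0.358 to 1.53 FPKM (5.18 ± 0.28). The summed level of 4 smooth muscle markers ran from 53.6 to 536 FPKM over the mesenchymal libraries, while that of 7 mesenchymal markers stayed between 4968 and 6313 FPKM.

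**Figure D2:**
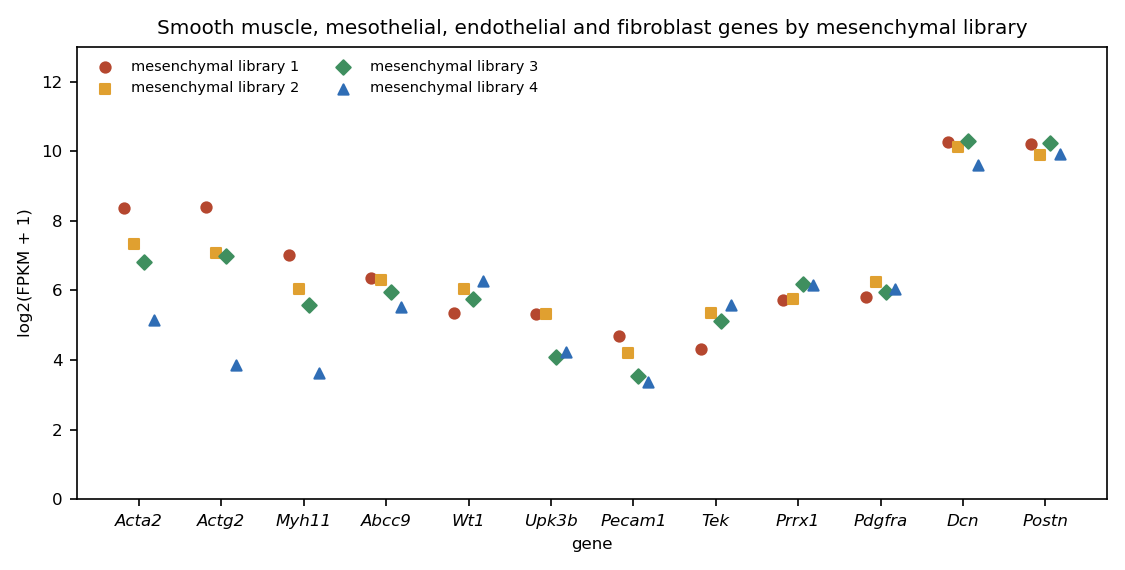
Levels of smooth muscle and other genes as log2(FPKM + 1) in the 4 mesenchymal libraries of H19DMD mutants, with 1 symbol per library. The contractile genes spread widely, with Acta2 from 34.7 to 333 FPKM and Actg2 from 13.5 to 335 FPKM, library 4 lowest and library 1 highest.

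All 8 mesothelial genes tested were called higher in mesenchymal cells, with a median of 2.51. The mesothelium is the epithelial sheet that covers the organ. Wt1, its zinc-finger transcription factor, was 40.2, 65.0, 52.9 and 75.9 FPKM in mesenchymal and 0.105 to 0.281 FPKM in non-mesenchymal libraries (5.57 ± 0.22, adjusted p = 2.41e-06). Upk3b, a uroplakin of mesothelial cells, was 38.8, 39.4, 16.0 and 17.7 FPKM against 0.611 to 0.992 FPKM. Lrrn4 was 15.5, 12.2, 9.29 and 3.45 FPKM against 0.165 to 0.285 FPKM, and Muc16, a large surface mucin, was 3.38 to 10.3 FPKM against at most 0.437 FPKM. The fractions were thus apart for each of them.

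Endothelial genes were mixed. Of 15 tested, 6 were called higher and 9 did not pass, with a median of 1.02 (0.97 over all 16 in the table). Tek, the angiopoietin receptor, was 19.1, 39.5, 34.0 and 47.2 FPKM in mesenchymal and 0.756, 2.83, 0.628 and 0.666 FPKM in non-mesenchymal libraries (4.05 ± 0.37, adjusted p = 9.44e-05). Eng, the TGF-beta co-receptor endoglin, was 24.5, 32.9, 26.6 and 18.5 FPKM against 1.72 to 4.23 FPKM (2.74 ± 0.28, adjusted p = 0.000179). Neither gene overlapped between fractions. Pecam1, the adhesion molecule CD31, was 24.6, 17.3, 10.7 and 9.32 FPKM against 9.56, 8.20, 7.09 and 10.5 FPKM, so its fractions overlapped and it did not pass (0.66 ± 0.30, adjusted p = 0.146). The sum of 5 endothelial markers was 23.8 to 97.0 FPKM in mesenchymal and 15.3 to 23.5 FPKM in non-mesenchymal libraries, and none of the 5 was at 0 in a whole fraction. Erg, an ETS factor of endothelium, differed by 1.75 ± 0.46 (adjusted p = 0.0226) and was no longer called without mesenchymal library 3 or non-mesenchymal library 1, 3 or 4 (1.63 to 1.75). Esam, an endothelial adhesion molecule, differed by 1.46 ± 0.40 (adjusted p = 0.0267) and was no longer called without mesenchymal library 1 or 2 or non-mesenchymal library 1, 2 or 4 (1.22 to 1.46). The count of 6 was 3 without mesenchymal library 1, mesenchymal library 2 or non-mesenchymal library 3, and 2 without non-mesenchymal library 1 or 4. It was 4 without mesenchymal library 3 or non-mesenchymal library 2. Without mesenchymal library 4 it rose to 8, with all 6 kept and Egfl7 and Emcn gained.

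**Figure D3:**
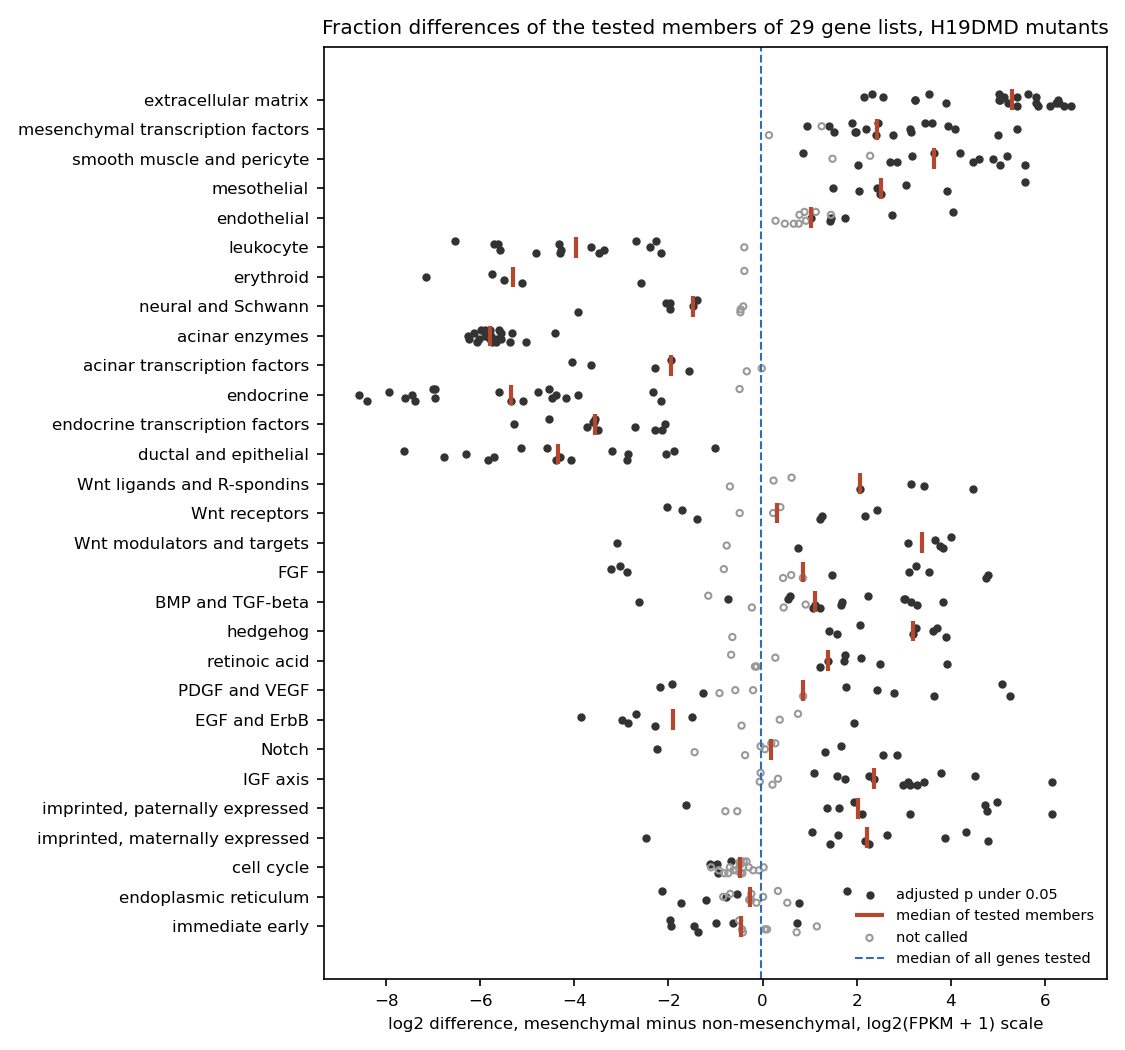
Log2 differences, mesenchymal minus non-mesenchymal on the log2(FPKM + 1) scale, of the tested members of 29 gene lists, with filled points for genes at an adjusted p under 0.05, open points for the others, a bar at each list's median and a dashed line at the median of all genes tested (-0.03). Matrix genes lie at the right with a median of 5.31, and acinar enzymes, endocrine and ductal genes at the left with medians of -5.78, -5.34 and -4.34.

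All 22 acinar digestive enzyme genes tested were called lower in mesenchymal cells, with a median of -5.78 (-5.78 over all 23 in the table). Promoters are shown for 2 of these genes because the enzymes moved as a block and because letters bound by the acinar PTF1 complex are textbook elements of such promoters. PTF1 joins the factors Ptf1a and Rbpjl, and its site pairs an E-box with a TTTCCC box. Both genes shown carry CACCTG and TTTCCC, as did only 5 of the 19 acinar enzyme genes with a promoter entry. They are therefore not typical of the block. The sequences are RefSeq promoters in GRCm38.p6, from 250 bases before to 50 bases after the gene's start, on the gene's strand from 5′ to 3′, with matches to CACCTG and TTTCCC in capitals on either strand. Cel, carboxyl ester lipase, lies on the minus strand (chr2:28563354-28563653), and Cela1, an elastase, on the minus strand (chr15:100687871-100688170).
Cel: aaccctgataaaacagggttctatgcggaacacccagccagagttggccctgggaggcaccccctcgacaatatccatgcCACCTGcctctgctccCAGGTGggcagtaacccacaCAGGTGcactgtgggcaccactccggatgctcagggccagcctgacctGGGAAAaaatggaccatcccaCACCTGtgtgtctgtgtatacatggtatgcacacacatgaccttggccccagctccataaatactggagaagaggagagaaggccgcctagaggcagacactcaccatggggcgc
Cela1: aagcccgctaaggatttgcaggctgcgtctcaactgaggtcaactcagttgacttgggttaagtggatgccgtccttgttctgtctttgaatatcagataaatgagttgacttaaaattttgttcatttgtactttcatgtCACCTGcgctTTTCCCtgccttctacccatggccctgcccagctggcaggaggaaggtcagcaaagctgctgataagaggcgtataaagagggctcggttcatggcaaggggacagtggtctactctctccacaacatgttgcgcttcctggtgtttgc
In Cela1 the CACCTG begins 109 bases and the TTTCCC 99 bases before the start. In Cel, CACCTG occurs 4 times, beginning 170, 154, 134 and 65 bases before the start, of which those at 154 and 134 are on the opposite strand, and a TTTCCC on the opposite strand begins 86 bases before the start.

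Both strands of all 32851 RefSeq promoters were searched with the same letters, which do not overlap each other. CACCTG was present in 20.2% of all promoters and in 11 of the 19 acinar enzyme genes with an entry (57.9%). TTTCCC was present in 25.2% and in 8 of the 19 (42.1%), and both in 4.86% and in 5 of the 19 (26.3%). The endocrine genes with an entry held CACCTG in 7 (46.7%) and TTTCCC in 3 of 15, and the matrix genes held CACCTG in 1 and TTTCCC in 7 of 15. A match is a description of letters, not of binding.

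Cel itself was 40.9, 16.8, 32.0 and 20.8 FPKM in mesenchymal and 1932, 1495, 2492 and 1820 FPKM in non-mesenchymal libraries, a 70.03-fold ratio of means and a log2 difference of -6.14 ± 0.29 (adjusted p = 4.21e-06). Cela1 was 17.6, 4.31, 4.79 and 4.83 FPKM against 379, 396, 577 and 483 FPKM (-5.90 ± 0.40). Pnliprp1, a pancreatic lipase-related protein, was 77.0, 24.5, 48.6 and 21.5 FPKM against 2884, 2693, 3813 and 2661 FPKM (-6.27 ± 0.39). The fractions were far apart for all 3, and among the mesenchymal libraries the highest value of each was in library 1. Cela2a, another elastase, was 9.14 to 64.1 FPKM against 1306 to 1998 FPKM. Try5, a trypsin, was 2.74 to 11.8 FPKM against 414 to 675 FPKM, and reads of the near-identical trypsin genes may be split among them. The part of the acinar RNA in mesenchymal library 1, where 5 acinar markers summed to 1680 FPKM, was not tested.

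Of 7 acinar transcription factors, 5 were called lower in mesenchymal cells and 2 did not pass, with a median of -1.95. Nr5a2, a nuclear receptor of acinar genes, was 1.52, 0.637, 1.28 and 0.412 FPKM in mesenchymal and 23.9, 30.3, 37.1 and 32.9 FPKM in non-mesenchymal libraries (-4.05 ± 0.24, adjusted p = 1.07e-05). Rbpjl, the acinar-specific PTF1 subunit, was 0.246 to 0.898 FPKM against 15.8, 16.1, 27.9 and 17.3 FPKM. Ptf1a, its DNA-binding partner, was listed at 0 in every mesenchymal library and was 1.49, 1.59, 3.28 and 1.79 FPKM in the others (adjusted p = 0.00487). Bhlha15, the secretory factor MIST1, was 4.47 to 8.59 FPKM in non-mesenchymal libraries, and Gata4 was 2.77 to 6.91 FPKM, against at most 0.632 FPKM for either in mesenchymal libraries. Non-mesenchymal library 3 held the highest value of each of these 5 factors, as it did for Cpa1, Cel, Pnliprp1 and Cela1. Xbp1 and Gata6, which act in many secretory and endodermal or mesodermal cells, were at similar levels in both fractions, with differences of -0.02 and -0.34.

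Hormones and other endocrine genes were called lower in mesenchymal cells for 20 of 21, and 1 did not pass, with a median of -5.34. Gcg, the glucagon gene, was 14, 21.2, 2.74 and 5.94 FPKM in mesenchymal and 6112, 4289, 2577 and 2669 FPKM in non-mesenchymal libraries, a ratio of means of 356 and a log2 difference of -8.57 ± 0.57 (adjusted p = 1.68e-05). Pyy, the gut and islet peptide YY, was 2.06 to 6.91 FPKM against 1324 to 2000 FPKM (-8.41 ± 0.30). Sst, somatostatin, was 6.94, 5.15, 9.47 and 1.33 FPKM against 1534, 1441, 1486 and 1307 FPKM (-7.94 ± 0.42). The fractions were far apart for each of these hormones. The insulin genes Ins1 and Ins2 are near-identical in part and may share reads. Ins1 was 33.0, 16.0, 16.8 and 16.0 FPKM against 4732, 3446, 3554 and 2331 FPKM (-7.38 ± 0.30), and Ins2 differed by -7.60 ± 0.62. The gene that did not pass was Cpe, carboxypeptidase E, which processes prohormones in many cell types, at 76.0 to 172 FPKM against 139 to 169 FPKM.

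The promoter of Ins1 is shown because it carries GCCATCTG, the insulin E-box bound by the islet factor Neurod1 with its partners. It lies on the plus strand (chr19:52264047-52264346, RefSeq, GRCm38.p6) and is printed with the matches to GCCATCTG in capitals.
Ins1: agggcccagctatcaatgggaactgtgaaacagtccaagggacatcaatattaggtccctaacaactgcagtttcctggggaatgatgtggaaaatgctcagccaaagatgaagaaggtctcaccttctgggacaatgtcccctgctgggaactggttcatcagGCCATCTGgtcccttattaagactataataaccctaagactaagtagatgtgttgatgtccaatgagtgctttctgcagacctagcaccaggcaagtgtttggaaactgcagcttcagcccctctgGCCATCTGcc
The copies begin 86 bases before the start and 41 bases after it. On both strands, GCCATCTG was present in 1.32% of all promoters of this length and in 1 of the 15 endocrine, 1 of the 19 acinar enzyme and 0 of the 15 matrix genes with an entry.

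All 11 endocrine transcription factors tested were called lower in mesenchymal cells, with a median of -3.55 (-2.71 over all 15 in the table). Nkx2-2, a homeobox factor of islet cells, was listed at 0 in every mesenchymal library and was 48.7, 44.4, 24.2 and 38.8 FPKM in the others. Pdx1, the homeobox factor of beta cells and pancreatic progenitors, was likewise listed at 0 and was 10.8, 10.01, 11 and 11.1 FPKM (adjusted p = 4.44e-06). Neurod1 was 14.7, 11.6, 13 and 11.3 FPKM against at most 0.115 FPKM. Rfx6, a factor required for islet development, was 10.6 to 13.9 FPKM against at most 0.353 FPKM. Pax6, which activates hormone genes, was 79.4 and 78.8 FPKM in libraries 1 and 2 and 30.8 and 35.4 FPKM in libraries 3 and 4 (0.582 to 3.69 FPKM in mesenchymal cells).

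All 16 ductal and epithelial genes were called lower in mesenchymal cells, with a median of -4.34. Spp1, osteopontin, which marks ducts in this organ, was 4.66, 2.96, 5.67 and 4.04 FPKM in mesenchymal and 728, 1112, 1085 and 1313 FPKM in non-mesenchymal libraries (-7.63 ± 0.23, adjusted p = 9.2e-07). Epcam, an epithelial adhesion molecule, was 0.136 to 1.52 FPKM against 112, 211, 162 and 222 FPKM (-6.78 ± 0.32). Cdh1, E-cadherin, was 0.446 to 1.38 FPKM against 112 to 192 FPKM. Spp1, Epcam and Cdh1 were thus low in every mesenchymal library. Krt18, a keratin, was 0.882 to 6.08 FPKM against 154 to 265 FPKM, and Krt19, another keratin, was 4.75 to 24.6 FPKM against 51.6 to 73.7 FPKM.

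Leukocyte genes were called lower in mesenchymal cells for 15 of 16, and 1 did not pass, with a median of -3.97. Tyrobp, a signalling adaptor of myeloid cells, was listed at 0 in every mesenchymal library and was 106, 70.7, 76.2 and 123 FPKM in the others (adjusted p = 9.28e-07). Lyz2, lysozyme of macrophages and neutrophils, was 6.59, 1.11, 2.90 and 1.13 FPKM against 121, 140, 210 and 278 FPKM (-5.72 ± 0.46). Laptm5, a lysosomal protein of blood cells, was 0 to 2.52 FPKM against 76.0 to 140 FPKM. The fractions did not overlap for any of these. Cd68, a lysosomal protein that other cells express too, was the gene that did not pass, at 16.9 to 64.5 FPKM against 23.6 to 59.6 FPKM.

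Globin genes of red cells were called lower in mesenchymal cells. Of 6 erythroid genes tested, 5 were called and 1 did not pass, with a median of -5.30 (-2.57 over all 9 in the table). Hbb-bs, an adult beta globin, was 2.35, 0.774, 2.08 and 3.74 FPKM in mesenchymal and 93.6, 414, 763 and 1170 FPKM in non-mesenchymal libraries (-7.15 ± 0.74, adjusted p = 0.000179). Hba-a1, an alpha globin, was 0 to 3.04 FPKM against 24.9, 72.8, 96.4 and 140 FPKM. Hba-a2 and Hbb-bt, near-identical copies that may share reads with them, were at most 1.34 FPKM against 16.6 to 145 FPKM and 11.8 to 209 FPKM. Non-mesenchymal library 1 was the lowest and library 4 the highest for all 4 globins, and the sum of 4 erythroid markers spanned 124 to 1352 FPKM.

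Of 9 genes of neurons and Schwann cells tested, 6 were called lower in mesenchymal cells and 3 did not pass, with a median of -1.47 (-1.38 over all 11 in the table). Elavl4, a neuronal RNA-binding protein also found in endocrine cells, was 16.1, 36.2, 11.7 and 6.25 FPKM in non-mesenchymal libraries and at most 0.0870 FPKM in mesenchymal libraries. Sox10, the neural crest factor, was 3.40, 3.96, 2.68 and 1.95 FPKM, and Th, the enzyme of catecholamine synthesis, was 6.04, 1.41, 1.83 and 3.93 FPKM; both were listed at 0 in every mesenchymal library.

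The IGF axis lay mostly on the mesenchymal side. Of 17 genes tested, 13 were called higher and 4 did not pass, with a median of 2.37 (2.31 over all 18 in the table). Igf2 was 88.5, 157, 45.4 and 141 FPKM in non-mesenchymal libraries, so that its mesenchymal mean of 7040 ± 800 (SD, n = 4) was 65.2 times the non-mesenchymal mean of 108 ± 50.9 (log2 difference 6.16 ± 0.37, adjusted p = 1.11e-05). From lowest to highest the non-mesenchymal libraries ran 3, 1, 4, 2 for Igf2, the same order as for the sum of 7 mesenchymal markers (35, 53.3, 103.2 and 133.6 FPKM, 1.45% of the mesenchymal mean), whose part in these values was not tested. Ranked by FPKM within each library among 21163 protein-coding genes, Igf2 was the first gene in every mesenchymal library and between rank 255 and rank 1160 in the non-mesenchymal libraries. Its exons overlap those of the antisense gene Igf2os, and the use of strand is not stated, so the values of both are uncertain there. Igf1, the related growth factor, was 388, 375, 317 and 309 FPKM against 31.1, 40.5, 51.4 and 50.9 FPKM (2.99 ± 0.19). The receptors differed among themselves. Igf2r, which takes up and degrades IGF2, was 131, 356, 181 and 301 FPKM against 38.6, 63.4, 48.4 and 38.6 FPKM (2.26 ± 0.33, adjusted p = 0.00137). Igf1r, the signalling receptor, was 25.4, 26.6, 20.3 and 33.2 FPKM against 21.7, 23.4, 16.2 and 21.6 FPKM, which overlapped (0.33 ± 0.19, adjusted p = 0.246). Among the binding proteins that hold IGFs in the extracellular space, Igfbp4 was 131, 126, 108 and 138 FPKM against 4.59 to 12 FPKM, Igfbp3 was 54.3 to 80.1 FPKM against 0.401 to 5.51 FPKM, and Igfbp6 was 4.67 to 20.9 FPKM against at most 0.442 FPKM. For each binding protein the fractions did not overlap.

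Most of the imprinted genes tested were higher in mesenchymal cells, in either parental class. Of 12 genes tested that are expressed from the paternal allele, 9 were called higher, 1 lower and 2 did not pass, with a median of 2.03 (1.78 over all 14 in the table). Plagl1, a zinc-finger factor, was 502, 629, 473 and 669 FPKM in mesenchymal and 7.28, 18.9, 22.1 and 25 FPKM in non-mesenchymal libraries (4.99 ± 0.35). Dlk1, a membrane-bound Notch-family ligand, was 634 to 798 FPKM against 12.3 to 42.2 FPKM, and Mest was 607 to 799 FPKM against 19.5 to 39.9 FPKM. Nnat, neuronatin, which is abundant in islet cells, went the other way, at 25, 14.9, 6.46 and 9.57 FPKM against 46.9, 41.7, 33.2 and 42.6 FPKM (-1.64 ± 0.36, adjusted p = 0.0108). Of 10 genes tested that are expressed from the maternal allele, 9 were called higher and 1 lower, with a median of 2.21 (2.17 over all 11 in the table). H19 was 26.2, 32.4, 14.6 and 26.4 FPKM in non-mesenchymal libraries and 28.1 times higher in the mesenchymal mean (4.79 ± 0.25, adjusted p = 6.36e-06). Its non-mesenchymal libraries also ran in the order 3, 1, 4, 2 of the mesenchymal marker sums given above, whose part was not tested. Cdkn1c, the cell cycle inhibitor p57, was 208, 209, 128 and 309 FPKM against 10.4 to 15.6 FPKM, and Zim1 was 141 to 204 FPKM against 5.76 to 11 FPKM. Asb4 was 9.56 to 17.1 FPKM against 0.265 to 3.47 FPKM. Slc22a18, a transporter, was the exception: it was 3.24 FPKM in mesenchymal library 1, listed at 0 in the other three, and 3.34, 11.1, 5.07 and 11.5 FPKM in non-mesenchymal libraries (adjusted p = 0.014).

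Wnt proteins signal through Frizzled receptors with Lrp co-receptors, and R-spondins raise the level of those receptors. Of 7 ligand genes tested, 4 were called higher in mesenchymal cells and 3 did not pass, with a median of 2.07 (0.86 over all 11 in the table). Rspo1 was 30.01, 46.3, 13.1 and 25.5 FPKM in mesenchymal and 0.941, 0.193, 0 and 0 FPKM in non-mesenchymal libraries (4.46 ± 0.39), and Rspo3 was 7.96 to 17.0 FPKM against at most 0.264 FPKM. Wnt5a, a ligand of the non-canonical branch, was 22, 22.8, 35.6 and 19.7 FPKM against 1.68 to 2.18 FPKM (3.15 ± 0.21). Wnt2b was 7.90 to 19.1 FPKM against 1.40 to 3.74 FPKM. All 4 were without overlap. The receptors divided: of 10 tested, 4 were called higher, 3 lower and 3 did not pass, with a median of 0.30 (0.22 over all 11 in the table). Fzd4 was 13.2, 15.6, 16.1 and 14.6 FPKM against 1.70, 1.78, 2.36 and 1.91 FPKM (2.44 ± 0.16), and Fzd2, Fzd7 and Fzd1 differed by 2.18, 1.27 and 1.22. Fzd5 was 2.18, 2.26, 0.973 and 1.94 FPKM against 10.1, 10.3, 8.02 and 13.5 FPKM (-2.02 ± 0.24, adjusted p = 0.00037), Lrp5 was 2.02 to 7.81 FPKM against 13 to 25.4 FPKM (-1.71 ± 0.36), and Fzd6 was 0.407 to 2.33 FPKM against 5.57 to 6.13 FPKM (-1.39 ± 0.30). Thus 3 receptor genes were higher in the YFP-negative fraction while Wnt5a, Wnt2b and both R-spondins were higher in mesenchyme.

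Secreted Wnt modulators and Wnt targets were called higher for 6 of 8 tested, lower for 1, and 1 did not pass, with a median of 3.38 (0.75 over all 11 in the table). Sfrp1, a decoy for Wnt ligands, was 131, 114, 67.6 and 62.3 FPKM in mesenchymal and 3.94 to 8.68 FPKM in non-mesenchymal libraries (3.83 ± 0.31), and its relative Sfrp2 was 11.1 to 34.0 FPKM against at most 1.53 FPKM. Dkk3 was 27.1 to 33.6 FPKM against 0.477 to 1.43 FPKM, and Dkk2, an Lrp antagonist, was 12.1 to 21.5 FPKM against at most 0.979 FPKM. Frzb, a further decoy, was the exception, at 14.4, 7.36, 7.39 and 8.94 FPKM in non-mesenchymal and at most 0.622 FPKM in mesenchymal libraries (-3.09 ± 0.29, adjusted p = 9.86e-05). Axin2, a feedback target of canonical Wnt signalling, was 10.9, 7.32, 13.3 and 8.89 FPKM against 7.42, 5.66, 3.97 and 5.35 FPKM, values that overlap by 1 library. Its call (0.75 ± 0.24, adjusted p = 0.0467) was lost without any 1 of 6 libraries (mesenchymal 1, 3 and 4, non-mesenchymal 2, 3 and 4), at 0.62 to 0.79.

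FGF genes were called in both directions. Fibroblast growth factors of the mesenchyme act on epithelial receptors during pancreas growth. Of 13 genes of the pathway tested, 6 were called higher in mesenchymal cells, 3 lower and 4 did not pass, with a median of 0.86. Fgf10 was 7.45, 8.12, 14.1 and 8.46 FPKM in mesenchymal and at most 0.164 FPKM in non-mesenchymal libraries (3.25 ± 0.24), and Fgf7, which uses the same receptor isoform, was 8.38 to 18.2 FPKM against at most 0.514 FPKM. Fgf18 was 40.0, 42.6, 29.2 and 31.2 FPKM against at most 1.16 FPKM. Fgf2 was 22.8, 36.4, 15 and 39.7 FPKM and was listed at 0 in every non-mesenchymal library, and its exons overlap Nudt6 on the opposite strand. The 4 ligands were thus near 0 outside the mesenchyme. Fgfr2 was 27.7, 20.3, 20.2 and 13.8 FPKM against 133, 148, 172 and 159 FPKM (-2.87 ± 0.21, adjusted p = 2.78e-05), Fgfr3 was 0.929 to 2.2 FPKM against 18.3 to 26.6 FPKM (-3.23 ± 0.21), and Fgfr4 was at most 1.09 FPKM against 9.81 to 15.2 FPKM (-3.03 ± 0.27). Fgfr1 was higher in mesenchymal cells, at 48.7, 55.2, 35.5 and 76.8 FPKM against 14.9 to 21.1 FPKM (1.48 ± 0.24), as was the feedback inhibitor Spry4, at 20.9 to 34.2 FPKM against 1.81 to 2.90 FPKM (3.10 ± 0.20).

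**Figure D4:**
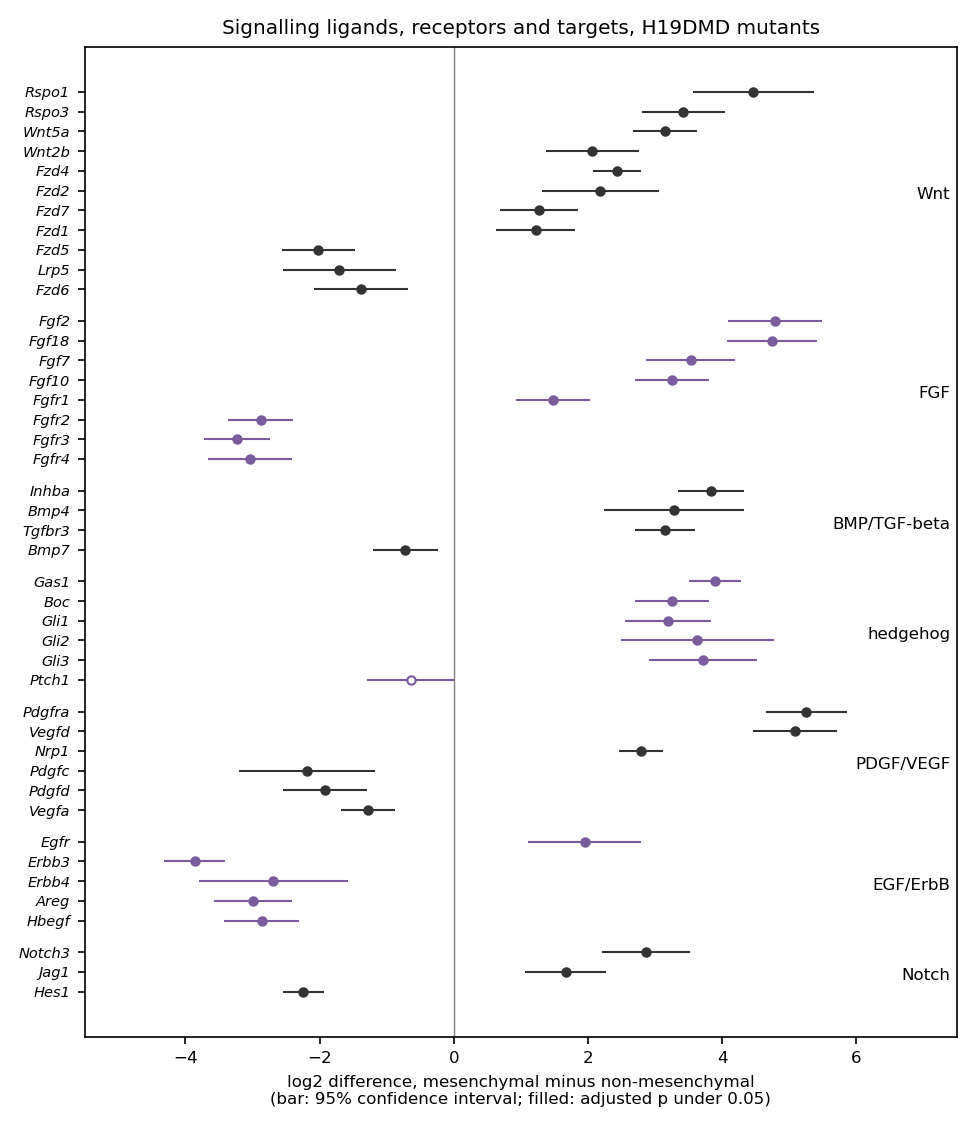
Log2 differences, mesenchymal minus non-mesenchymal, of named ligands, receptors and targets with 95% confidence intervals, filled where the adjusted p was under 0.05. Fgf2, Fgf18, Fgf7 and Fgf10 lie to the right of 0 and Fgfr2, Fgfr3 and Fgfr4 to the left.

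Hedgehog components were called higher in mesenchymal cells for 8 of 9 tested, and 1 did not pass, with a median of 3.20 (1.59 over all 13 in the table). The ligands Shh and Ihh were at most 0.106 FPKM in any mutant library and Dhh at most 2.42 FPKM, all under the mean needed for a test. Gas1, a co-receptor, was 111, 94.0, 75.4 and 87.4 FPKM in mesenchymal and 5.12, 4.99, 4.49 and 6.40 FPKM in non-mesenchymal libraries (3.89 ± 0.17, adjusted p = 3.08e-06), and the co-receptor Boc was 9.90 to 16.4 FPKM against 0.232 to 0.863 FPKM. The transcription factors of the pathway showed the same direction: Gli3 was 27.1 to 39.7 FPKM against 0.834 to 4.32 FPKM, Gli2 was 18.7 to 40.6 FPKM against 0 to 4.03 FPKM, and Gli1, itself a target, was 7.38 to 14.8 FPKM against 0.0592 to 0.851 FPKM. Ptch1, the receptor and another target, was 10.3, 14.7, 6.00 and 7.38 FPKM against 12.1, 19, 12.1 and 17.1 FPKM. It did not pass (-0.64 ± 0.29, adjusted p = 0.136) and was called lower only without mesenchymal library 2 (-0.86, adjusted p = 0.0482).

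Among 19 genes of BMP and TGF-beta signalling tested, 13 were called higher in mesenchymal cells, 2 lower and 4 did not pass, with a median of 1.11 (1.07 over all 21 in the table). Inhba, the subunit of activin A, was 27.7, 27.9, 19.1 and 17.9 FPKM in mesenchymal and 0.440 to 0.977 FPKM in non-mesenchymal libraries (3.83 ± 0.21), and Bmp4 was 12.3 to 20.9 FPKM against 0 to 3.35 FPKM. Tgfbr3, the co-receptor betaglycan, was 45.0, 44.4, 44.5 and 50.6 FPKM against 3.33 to 6.47 FPKM (3.15 ± 0.19). The inhibitors of helix-loop-helix factors, which BMP signals induce, split by fraction. Id3 was 31.6, 32.1, 20.9 and 29.2 FPKM against 1.36, 3.73, 1.5 and 4.81 FPKM (3.03 ± 0.33), whereas Id2 was 15.5, 14.2, 10.3 and 3.50 FPKM against 53.6, 64.8, 72.7 and 67.8 FPKM (-2.62 ± 0.39, adjusted p = 0.0015). Bmp7 was 6.52, 8.16, 4.71 and 5.76 FPKM against 8.92, 10.9, 10.04 and 14.3 FPKM (-0.73 ± 0.21, adjusted p = 0.0338), a call lost without any 1 of 6 libraries (mesenchymal 1, 3 and 4, non-mesenchymal 2, 3 and 4), at -0.76 to -0.60.

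Retinoic acid, made from vitamin A by aldehyde dehydrogenases, patterns the pancreas. Of 11 genes of its synthesis and response tested, 7 were called higher in mesenchymal cells and 4 did not pass, with a median of 1.38 (0.75 over all 14 in the table). Aldh1a2, the synthesising enzyme of embryonic mesoderm, was 31.2, 29.8, 19.3 and 20.3 FPKM in mesenchymal and 1.15, 1.51, 0.196 and 0.267 FPKM in non-mesenchymal libraries (3.92 ± 0.31, adjusted p = 4e-05). Rdh10, the preceding enzyme, was 17.3 to 34.9 FPKM against 2.58 to 7.84 FPKM, the binding protein gene Crabp1 was 2.90 to 9.06 FPKM against at most 0.992 FPKM, and the receptor gene Rarb was 3.76 to 8.95 FPKM against 0.526 to 1.61 FPKM. None of the 4 overlapped between fractions.

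PDGF and VEGF genes were called in both directions. Of 13 tested, 6 were called higher in mesenchymal cells, 3 lower and 4 did not pass, with a median of 0.86. Pdgfra, a PDGF receptor of fibroblasts, was 55.5, 74.3, 60.5 and 64.8 FPKM in mesenchymal and 0.223 to 1.69 FPKM in non-mesenchymal libraries (5.25 ± 0.26, adjusted p = 4.95e-06). Its ligand Pdgfc was 9.0, 3.72, 4.59 and 1.45 FPKM against 12.5, 23.6, 26.8 and 28.9 FPKM (-2.18 ± 0.44), and Pdgfd was 1.27 to 4.08 FPKM against 11 to 15.8 FPKM (-1.92 ± 0.27). Vegfa, the main growth factor of blood vessels, was 56.8, 48.3, 68.4 and 64.9 FPKM against 117, 152, 138 and 176 FPKM (-1.27 ± 0.18, adjusted p = 0.000939). Vegfd, a growth factor of lymphatic vessels, was the reverse, at 43.5 to 62.2 FPKM against at most 1.32 FPKM, and the co-receptors Nrp1 and Nrp2 were higher by 2.79 ± 0.14 and 2.43 ± 0.32.

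Genes of EGF signalling were mostly lower in mesenchymal cells: of 10 tested, 1 was called higher, 6 lower and 3 did not pass, with a median of -1.90 (-0.98 over all 12 in the table). The ligand Areg was listed at 0 in 3 mesenchymal libraries and at 0.769 FPKM in library 2, against 8.15, 8.88, 8.65 and 7.19 FPKM, and Hbegf was 1.79 to 2.99 FPKM against 15.9 to 30.4 FPKM (-2.86 ± 0.24). The receptor Erbb3 was at most 0.484 FPKM against 14.1, 17.8, 15.1 and 15.9 FPKM (-3.86 ± 0.20, adjusted p = 5.56e-06), and Erbb4 was at most 0.0329 FPKM against 2.07 to 12.9 FPKM. Egfr itself was the higher one, at 22.6, 19.8, 21.9 and 18.6 FPKM in mesenchymal and 10.8, 2.85, 2.63 and 4.95 FPKM in non-mesenchymal libraries (1.95 ± 0.36, adjusted p = 0.00467).

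Notch signalling passes between touching cells. Of 11 genes tested, 4 were called higher in mesenchymal cells, 1 lower and 6 did not pass, with a median of 0.19 (0.12 over all 12 in the table). Notch3, the receptor of mural cells, was 14.8, 11.2, 6.28 and 13.1 FPKM in mesenchymal and 0.282 to 0.939 FPKM in non-mesenchymal libraries (2.86 ± 0.28), and the effector Heyl was 14.2 to 30.7 FPKM against 2.35 to 5.08 FPKM. The ligand Jag1 was 12.3 to 23.7 FPKM against 3.48 to 6.92 FPKM. Hes1, the effector in pancreatic progenitors and ducts, was lower, at 41.8, 42.0, 35.3 and 34.8 FPKM against 188, 202, 164 and 190 FPKM (-2.24 ± 0.13, adjusted p = 1.05e-05). Notch4, an endothelial receptor, differed by 1.33 ± 0.37 (adjusted p = 0.0277), a call lost without mesenchymal library 1, 2 or 3 or non-mesenchymal library 1, 2 or 4 (1.17 to 1.37), and the summed endothelial markers given above were higher in every mesenchymal than in any non-mesenchymal library, and their part in this was not tested.

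Few proliferation genes were called. Of 23 cell cycle genes tested, 4 were called lower in mesenchymal cells and 19 did not pass (median -0.48), a share of 4 in 23 that is near the 15.1% of all genes called lower. Mcm6, a subunit of the replicative helicase, was 17.6, 15, 13.4 and 17.6 FPKM in mesenchymal and 22.5, 23.6, 26.4 and 31.3 FPKM in non-mesenchymal libraries (-0.67 ± 0.16, adjusted p = 0.0165). Mki67, the proliferation antigen, was 44.8, 37.7, 24.6 and 24.5 FPKM against 51.8, 50.3, 45.5 and 68.3 FPKM and did not pass (-0.73 ± 0.24, adjusted p = 0.0521), though its fractions did not overlap and it passed without mesenchymal library 1 (adjusted p = 0.0236) and under 5 other alternatives. The other calls were Ccnb2, Cdc20 and Cenpf, genes of mitosis, with differences of -1.12, -0.98 and -0.95. Each was lost in 5 or 6 of the 8 fits that left out 1 library: Ccnb2 without mesenchymal 3 or 4 or non-mesenchymal 1, 2 or 4 (-1.10 to -0.92), Cdc20 without mesenchymal 1, 2 or 3 or non-mesenchymal 1, 2 or 4 (-1.02 to -0.84), and Cenpf without mesenchymal 2, 3 or 4 or non-mesenchymal 2, 3 or 4 (-1.0 to -0.73). The count of 4 was 1 without mesenchymal library 3 or non-mesenchymal library 4, and 2 without mesenchymal library 2 or 4 or non-mesenchymal library 1 or 2, where the fit without non-mesenchymal library 2 kept 1 of the 4 and gained Pcna, singled out after its values were seen.

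Genes of the endoplasmic reticulum, where secreted proteins are folded, gave 2 higher and 5 lower calls among 16 tested (median -0.27), and 9 did not pass. The share of 2 in 16 is near the 13.5% of all genes called higher, and that of 5 in 16 is above the 15.1% called lower. Hspa5, the main chaperone BiP, was 301, 352, 341 and 327 FPKM in mesenchymal and 285, 385, 389 and 400 FPKM in non-mesenchymal libraries, which overlapped. Sdf2l1, a chaperone-complex member, was 3.25, 5.49, 3.99 and 9.48 FPKM against 21.3, 26.2, 22.9 and 35.9 FPKM (-2.13 ± 0.31, adjusted p = 0.00117), Herpud1 of the degradation machinery was 6.70 to 15.6 FPKM against 31.9 to 48.7 FPKM, and Sec61b of the translocation channel was 15.7 to 29.3 FPKM against 42.3 to 65.0 FPKM. Ssr4 differed by -0.78 ± 0.23 (adjusted p = 0.0368), a call kept, among fits without 1 library, only without mesenchymal library 4 (-0.85 to -0.66 in the others), and the 5 lower calls were 3 without mesenchymal library 3 or any 1 non-mesenchymal library. Ddit3, the stress factor CHOP, was higher, at 56.4, 58.0, 97.0 and 129 FPKM against 13.2, 33.2, 25.5 and 21.8 FPKM (1.80 ± 0.35, adjusted p = 0.00608), but it shares exon sequence with Mars on the opposite strand. Creb3l1, a collagen-secretion factor, was higher by 0.78 ± 0.18.

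Immediate-early genes are known to be induced by dissociation of tissue. Egr1, a zinc-finger factor of this class, was 821 to 1601 FPKM in mesenchymal and 1044 to 1351 FPKM in non-mesenchymal libraries. Of 14 tested, 1 was called higher, 6 lower and 7 did not pass (median -0.47, or -0.44 over all 15 in the table). Egr2 was 177, 138, 133 and 201 FPKM against 549, 742, 704 and 515 FPKM (-1.95 ± 0.20, adjusted p = 0.000163), Ier3 was 36.5 to 65.6 FPKM against 145 to 184 FPKM (-1.96 ± 0.21), and Atf3 was 53.6 to 94.2 FPKM against 160 to 257 FPKM. Fosl1 differed by -1.46 ± 0.38 and was no longer called without non-mesenchymal library 1 or 3 (-1.40 and -1.38). Zfp36, which destabilises such transcripts, was 961 to 1417 FPKM against 521 to 847 FPKM (0.73 ± 0.21, adjusted p = 0.0296), a call lost without mesenchymal library 1 or 2 or non-mesenchymal library 1, 2 or 3 (0.59 to 0.78). The 6 lower calls were 3 without non-mesenchymal library 1.

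Outside these lists, the protein-coding genes with the largest differences on the mesenchymal side were led by Vcan and Dpt. Vcan, the proteoglycan versican, was 662, 638, 571 and 800 FPKM in mesenchymal and 7.90, 7.78, 11.2 and 9.21 FPKM in non-mesenchymal libraries (6.06 ± 0.17, adjusted p = 9.2e-07). Mxra8, a membrane protein of matrix-rich cells, was 321 to 379 FPKM against 3.93 to 12.2 FPKM. Dpt, dermatopontin, was 166 to 205 FPKM against 0.773 to 6.31 FPKM, and Mmp2, a gelatinase, was 84.6 to 113 FPKM against 0.809 to 3.54 FPKM. C1s, Islr, Fap, Pi15, Plac9 and Ccl11 completed the 10, with differences of 5.40 to 5.75. On the other side were Ttr, transthyretin, which islet cells make, at 317, 273, 243 and 276 FPKM against 0.25 to 1.01 FPKM (-7.54 ± 0.19), and genes of neutrophils and mast cells. S100a9, a subunit of the neutrophil protein calprotectin, was 166, 195, 187 and 332 FPKM and was listed at 0 in 3 mesenchymal libraries, and S100a8, its partner, was 145 to 231 FPKM. Stfa2 and Stfa2l1, near-identical cystatins of neutrophils that may share reads, were 72.6 to 188 FPKM and 107 to 269 FPKM, and Cma1, a mast cell protease, was 75.0 to 156 FPKM, against at most 3.32 FPKM for these 3 in mesenchymal cells. Dcdc2a, Ces1d, Ambp and the trypsin gene Prss1 completed the 10, with differences of -6.71 to -6.41.

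The same contrast was set beside that of the controls. Among 16732 genes tested in controls, mesenchymal cells had 2067 calls in the higher and 1718 in the lower direction. Of the genes called higher in mutants, 66.8% were also called higher in controls, which was 73.2% of those called there. For lower calls the shares were 54.1% and 79.9%, and 2 genes were called in opposite directions. Pearson's r between the differences of the genotypes was 0.773 across 15715 genes, as a description over genes measured in separate libraries of 1 table. Of the list medians, the matrix genes had a median of 5.84 in controls against 5.31, acinar enzymes -5.89 against -5.78 and endocrine genes -5.21 against -5.34. The medians were further apart for mesothelial genes, at 3.64 against 2.51, and erythroid genes, at -3.69 against -5.30. Taken gene by gene, the median of mutant minus control differences was -0.11 over all genes tested, against -0.91 for mesothelial, -1.35 for erythroid, -0.60 for smooth muscle and pericyte, -0.54 for hedgehog, -0.51 for ductal and epithelial, -0.50 for matrix and 0.40 for leukocyte genes, and between -0.48 and 0.21 for the other lists. The sum of 4 erythroid markers in non-mesenchymal libraries was 102 to 332 FPKM in controls against 124 to 1352 FPKM in mutants. The mesothelial genes summed to 340, 169 and 151 FPKM in control mesenchymal libraries 1 to 3 and to 104 to 158 FPKM in those of mutants. Control library 1 was thus the highest by far, and control library 3 lay inside the mutant range.

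**Figure D5:**
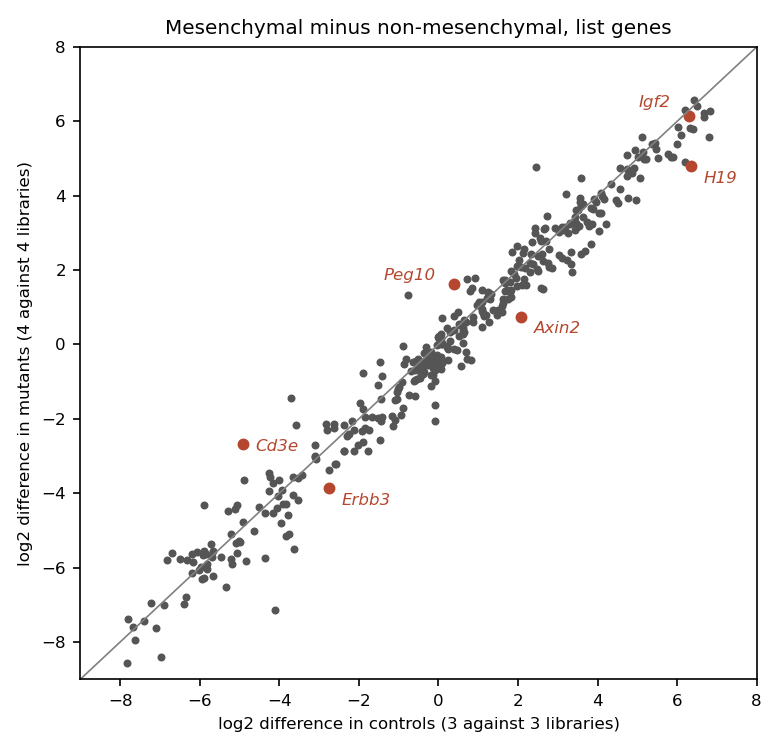
Log2 difference, mesenchymal minus non-mesenchymal, of 385 list genes in controls (x axis, 3 against 3 libraries) and in mutants (y axis, 4 against 4 libraries), each point 1 gene. H19 lies at 6.34 in controls and 4.79 in mutants, and Igf2 at 6.29 and 6.16.

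Whether the difference between fractions itself differed between genotypes was tested as an interaction over all 14 libraries. Of 17105 genes, 2 (0.0117%) had an adjusted p under 0.05, and 1087 (6.35%) had an unadjusted p under 0.05. Both called features are short RNAs, whose FPKM become very large when divided by so small a length. Mir344g, a microRNA gene of 71 nt, was listed at 0 in all 8 mutant libraries and in the control non-mesenchymal libraries and was 1785, 1857 and 1112 FPKM in the control mesenchymal libraries (-10.59 in the interaction). A U6 small nuclear RNA of 95 nt on chromosome X was 139, 519, 391 and 533 FPKM in the mutant mesenchymal libraries and listed at 0 elsewhere (8.46). Among 15250 genes whose longest transcript has 200 nt or more, limma called 0, with 998 at an unadjusted p under 0.05.

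Of 391 genes of the lists in this test, 34 (8.7%) had an unadjusted p under 0.05, and none passed the adjustment. The lowest adjusted p was 0.448, for H19 and Peg10. H19 was 4.79 higher in mesenchymal than in non-mesenchymal cells of mutants and 6.34 higher in controls, an interaction of -1.55 with a 95% confidence interval of -2.27 to -0.83. Peg10, a paternally expressed gene, was 111, 102, 110 and 133 FPKM in mesenchymal and 51.5, 33.8, 33.1 and 30.03 FPKM in non-mesenchymal mutant libraries (1.62 ± 0.19), against 72.4, 99.0 and 81.6 FPKM and 58.0, 66.4 and 65.8 FPKM in controls (interaction 1.22, interval 0.64 to 1.80). For Igf2 the differences were 6.16 in mutants and 6.29 in controls, with an interaction of -0.14 (interval -1.16 to 0.88, adjusted p = 0.979). Igf2 was 48.2 ± 4.38 FPKM (SD, n = 3) in control non-mesenchymal libraries, with mutant library 3 (45.4 FPKM) inside the control range and the other 3 above it. The interaction turned sign without mutant non-mesenchymal library 2 (0.09) or 4 (0.04) and was -0.50 without library 3. Next came Cd3e, a T cell receptor subunit, at 17.1, 3.78, 3.56 and 3.36 FPKM in mutant and 36.6, 22.1 and 31.0 FPKM in control non-mesenchymal libraries, with an adjusted p of 0.722, which passed (0.00423) without mutant non-mesenchymal library 1. Axin2 and Erbb3 had interactions of -1.34 and -1.10, each with an adjusted p of 0.755. A p that misses the threshold does not show that the genotypes were alike, and with 3 control libraries of each fraction the intervals are wide.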

How the data were processed

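Per the submitters' processing notes, reads were handled with TopHat2 2.0.8 and Cufflinks 2.2.1 on GRCm38; the annotation and the use of strand are not given in the sources used here. The authors deposited 1 table of FPKM values for 38283 genes in 14 libraries of the H19DMD model, and no other scaling is stated. The fourth control of each fraction and the Igf2 model were not analysed here. Gene lists and members were chosen with earlier results of these data known.

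Values were tested as log2(FPKM + 1) with limma 3.58.1 in R 4.3.3 (lmFit, eBayes with a trend), for genes averaging 1 FPKM or more, with two-sided Benjamini-Hochberg adjusted p at 0.05. The 8 mutant libraries entered the fraction fit and all 14 the interaction fit. Both fits were tested on simulated data. Differences are given with standard errors (SE). An exact 0 can be a failed estimate, since up to 10 protein-coding genes of a fraction with a median above 10 FPKM had a 0 in a library.

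Named genes were the markers, Igf2 and H19, up to 4 called members of each list by size of difference with up to 3 opposing ones, ligands, receptors or targets described with them, and 10 genes per direction outside the lists (protein-coding, no overlap, mean log2 of at least 3). A few genes that did not pass, and Nkx3-2, were named after their values were seen. 1 gene that the rule names is not reported here. Of 175 named genes, 47 share exon sequence with another gene, 40 of them with one on the opposite strand, and their values are uncertain to that extent. Alternatives were another pseudocount, filter, scaling, feature class, the replicate block, all libraries in 1 fit, and leaving out each library. Coordinates are GENCODE M21 and promoters RefSeq, both GRCm38.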

Additional observations from a re-analysis of the deposited data

Results flagged for a closer look

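In groups of 4 libraries, 28 of 336 (8.33%) held a library whose gap to the nearest of the other three was large for the range of the group on the log2(FPKM + 1) scale, where chance gives about 1 in 20. Such a gap is relative and can be small in FPKM. A group with 3 libraries at 0 meets the rule however small its remaining value, and the chance rate does not cover such groups. The share of 8.33% is therefore not shown to exceed chance. In 12 of the 28 groups the other 3 libraries were listed at 0. In mesenchymal cells these were Elavl4 (0.0870 FPKM, library 4), Neurod1 and Rfx6 (0.115 and 0.353 FPKM, library 3), Areg, S100a9 and S100a8 (0.769, 1.11 and 7.35 FPKM, library 2), and Erbb4 and Slc22a18 (0.0329 and 3.24 FPKM, library 1). In non-mesenchymal cells they were Tcf21, Rspo3 and Crabp1 (0.572, 0.264 and 0.992 FPKM, library 2) and Igfbp6 (0.442 FPKM, library 4).

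Among mesenchymal libraries, Cela1, Ins1 and Ier3 were highest in library 1 (17.6, 33.0 and 65.6 FPKM), Ces1d in library 2 (4.73 FPKM), and in library 4 Tgfbr3 was highest (50.6 FPKM) and Fzd6 lowest (0.407 FPKM). Among non-mesenchymal libraries, the acinar factors Rbpjl, Bhlha15 and Gata4 were highest in library 3 (27.9, 8.59 and 6.91 FPKM), where Ier3 was lowest (145 FPKM). Tek, Fap and Mmp2 were highest in library 2 (2.83, 1.68 and 3.54 FPKM), Gli3 and Ccl11 in library 4 (4.32 and 3.56 FPKM), and Cd3e in library 1 (17.1 FPKM). The 7 mesenchymal markers summed to 134 FPKM in non-mesenchymal library 2 and 103 FPKM in library 4, the higher pair of that fraction, and their part in these values was not tested.

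The difference between fractions differed between genotypes, by the interaction test, for U6 on chromosome X (8.46) and Mir344g (-10.59), both short RNAs.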

How the results depend on the processing

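Genes called numbered 2265 higher and 2537 lower, and stayed within 1.5 times of these under every alternative but 1: with a mean of at least 5 FPKM, where fewer genes are tested, 1627 were higher and 1521 lower. Leaving out 1 library gave 1837 to 2155 higher and 2009 to 2483 lower. The interaction, with 2 calls, gave 6 with a pseudocount of 0.1, 0 with transcripts of at least 200 nt (998 at an unadjusted p under 0.05), and 2 to 9 without 1 library. The interaction of Igf2 (-0.14) turned to 0.091 and 0.042 without mutant non-mesenchymal library 2 or 4, and ran from -0.50 to 0.091 over all such fits. The cause of these changes was not tested.

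The labels do not say that replicate numbers pair the samples, and the values do not decide it. The deviations of same-numbered libraries correlated at 0.00738 to 0.0419, under the threshold of 0.1 set for pairing. Yet 3 of 4 mesenchymal and 2 of 4 non-mesenchymal libraries correlated best with their own number. The libraries were treated as unpaired in the main fit. With the replicate block 1967 genes were higher and 2174 lower, and the interaction called 3. Over all alternatives, named genes kept their direction and side of the threshold in 2664 fits, lost the call in 71 and gained it in 7, of which 6 were Mki67. Of 173 named genes tested, 160 kept their call without any 1 library. FPKM hold no counts, so precision at low levels is limited to the spread between libraries.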
